A study of Mus musculus with 9 samples.

Results

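The classical complement pathway was followed through 7 genes, C1qa, C1qb, C1qc, C1s1, Serping1, Cd46 and C3, whose clones were found by their symbols in the probe annotation. The genes were chosen with earlier results of these data known. Of the 42624 features on the array, 9 cDNA clones were each named by 1 of these genes, and they covered 6 of the 7. C1qa, C1qb and C1s1 had 2 clones each, and C1qc, Serping1 and Cd46 had 1 each. C3 was named by none of the clones used here and was not analysed here. The RNA was from the skin of the distal tail of female SKH-1 mice, a hairless immunocompetent strain studied at 3 weeks of age. In the lymphedema group the tail skin was cut all the way round at 16 mm from the base, and the lymph trunks, stained with methylene blue, were cauterized. Sham mice had the same cut and dye injection without cautery, and normal mice had no surgery. All mice were killed on day 14, and the skin of 9 mice per state was combined into 3 pools of 3 mice. Each pool was hybridized once, together with a reference RNA of whole e17.5 embryos, to a 2-color cDNA array. The replicates of a state are its 3 pools (n = 3), and this number limits the precision of every value below.

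Complement is a cascade of plasma proteins that tags cells, microbes and debris for removal. The classical branch starts when C1q, assembled from the chains encoded by C1qa, C1qb and C1qc, binds antibody or another ligand and switches on the attached proteases C1r and C1s, which then cut C4 and C2 and so lead to the cleavage of C3. Serping1 encodes the C1 inhibitor, which removes C1r and C1s from the complex, and CD46 is a membrane cofactor for the inactivation of C3b and C4b. In tissues C1q is made largely by macrophages, and fibroblasts and endothelial cells make C1s and the C1 inhibitor. In mice the transcript of Cd46 is known mainly from testis, and Cr1l, also called Crry, is the membrane regulator found on most cells.

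Values are log2 ratios of tail skin over embryo reference, with each array centered on its median, so a value of 0 is the ratio of the middle feature and not an equal amount of RNA. The labels and the methods give opposite dyes for skin and reference, and the direction was read from the arrays. On every array all 22 embryo genes lay above the median of the deposited ratio, with list medians of 2.22 to 2.66. The list medians of 13 adult skin genes were −3.14 to −2.35, and 1 or 2 of the 13 lay above the median on each array. The sign was therefore turned, against the direction that the dyes of the labels would give. The log base is not stated and was read as 2, and folds rest on that reading. By the features that lacked a value, the arrays were divided into a pair of sets, called slide sets here. The sample titles name no slide or batch, so the name is only a short form for this pattern of missing values. The first set held the 3 normal arrays and lymphedema array 1, and the other set held lymphedema arrays 2 and 3 and the 3 sham arrays. In 186 features a value was present throughout the first set and absent throughout the other, against at most 45 features for any other of the 126 divisions of this kind. The reverse pattern held in 1 feature. Only divisions of 4 against 5 arrays were searched, and what the sets stand for was not tested.

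Lymphedema against normal skin compares tails with cut skin and ablated lymph trunks with untouched tails. In lymphedematous skin 4 of the 6 measured complement genes rose and 1 fell relative to normal skin. The risers were C1qa at 4.09-fold, C1qc at 3.08-fold, the protease gene C1s1 at 2.37-fold and the inhibitor gene Serping1 at 2.30-fold, and Cd46 fell to 0.538 of its normal ratio. C1qb was 2.43-fold higher on average and did not pass. Among all 8644 genes tested, 2.83% passed as higher and 0.602% as lower (limma with Benjamini-Hochberg adjustment at 0.05). All 3 lymphedema arrays lay above all 3 normal arrays for 4 of the 6 genes and below them for 1, as they did for 23.6% and 10.2% of all genes. The median log2 difference was 1.26 over the 6 genes and 0.10 over all genes, and 62% of all genes had a positive difference. The median of all genes depended on the scaling, at −0.02 after quantile normalization, and all 6 genes kept their sign under each scaling. In RNA of whole skin, a change in the number of cells of a type and a change in RNA per cell cannot be told apart.

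The count of 5 depended on single arrays. It was 0 without normal array 1 or 2 and without lymphedema array 1 or 2, 2 without normal array 3 and 1 without lymphedema array 3, while over all genes the calls dropped from 297 to between 9 and 73 in these runs. A fit blocked on slide set takes its estimate from lymphedema array 1 set against the normal arrays. A call lost in such a fit is no result about a single gene, so only its differences are given. They were 2.13 for C1qa, 1.40 for C1qc, 1.87 for C1qb, 0.67 for C1s1, 1.26 for Serping1 and −0.94 for Cd46. Lymphedema array 1 lay beyond all 3 normal arrays of its own slide set for each of the 6 genes. This rests on 1 pool, and the share of all genes with this pattern was not computed, so no conclusion is drawn from it.

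**Figure D1:**
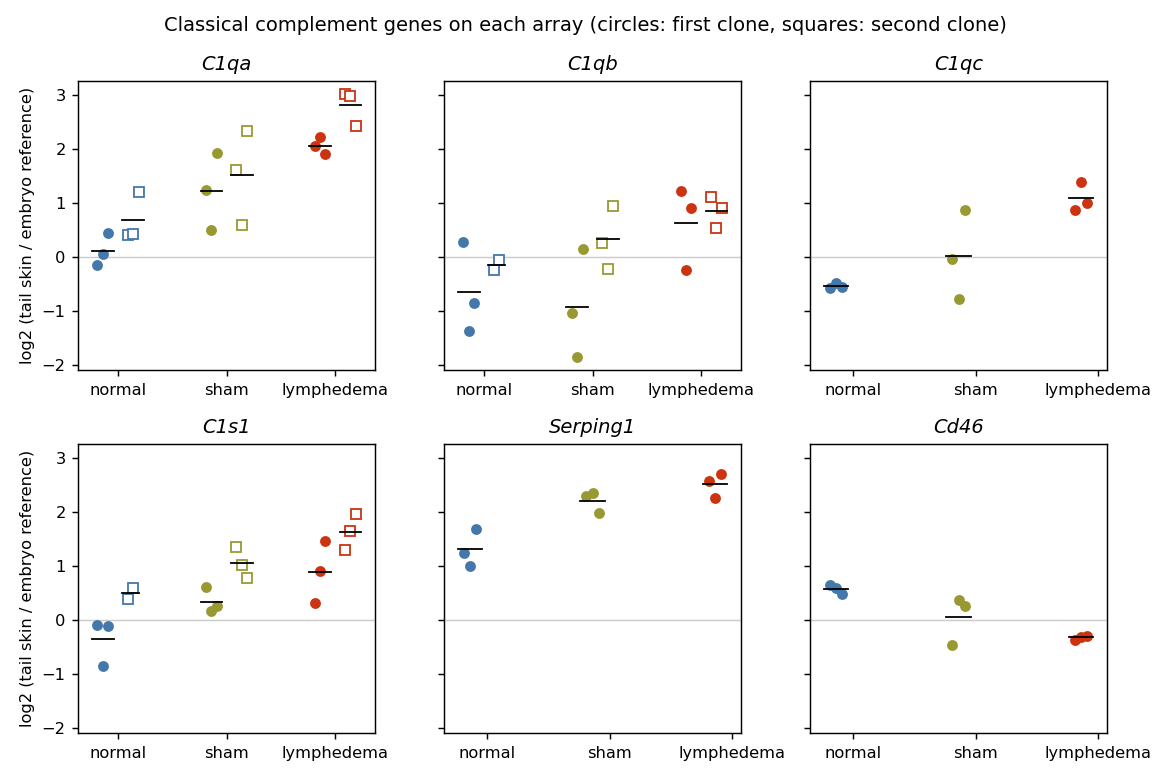
Log2 ratio of tail skin over embryo reference (vertical axis) for every clone of C1qa, C1qb, C1qc, C1s1, Serping1 and Cd46 on each array of normal, sham and lymphedema skin. Circles are the first clone, open squares the second, and short lines the mean of a clone in a state. Both clones of C1qa and the clones of C1qc and Serping1 lie higher on all 3 lymphedema than on all 3 normal arrays, and Cd46 lies lower, while the first clone of C1qb overlaps.

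The A chain of C1q rose most among the 6 genes. Its first clone had −0.14, 0.06 and 0.46 on normal arrays 1 to 3, 2.05, 2.23 and 1.92 on the lymphedema arrays and 1.24, 0.51 and 1.93 on the sham arrays. The second clone of C1qa had 0.41, 0.44 and 1.21 on the normal arrays, 3.02, 2.98 and 2.43 on the lymphedema arrays and 1.61, 0.60 and 2.34 on the sham arrays. In both clones all lymphedema arrays were above all normal arrays, and sham array 3 was close to the lymphedema arrays while sham array 2 was close to the normal ones. The second clone read higher than the first on every array, by 0.53 on average, so its level differed but its difference between states was similar, at 2.12 against 1.94. Averaged over clones, C1qa was at 0.41 ± 0.38 (SD, n = 3) in normal and 2.44 ± 0.23 in lymphedematous skin. The log2 difference was 2.03 (standard error 0.343, 95% interval 1.28 to 2.78, adjusted p = 0.0191 from limma over all genes). Tested as single features, the 2 clones of C1qa had an adjusted p = 0.00471 and 0.00776.

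C1qc, which encodes the C chain, was tight in normal skin and rose as well. It had −0.57, −0.48 and −0.56 on the normal arrays, 0.87, 1.40 and 1.00 on the lymphedema arrays and −0.03, −0.78 and 0.88 on the sham arrays. The normal and lymphedema arrays did not overlap, while the sham arrays ran from below all normal arrays to within the lymphedema range. The log2 difference of lymphedema from normal for C1qc was 1.63 (standard error 0.334, 95% interval 0.892 to 2.36, adjusted p = 0.0288 from limma).

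C1qb, the gene of the B chain, had the same sign but the widest scatter of the 6 genes. Its first clone had 0.28, −1.36 and −0.86 on the normal arrays, 1.22, −0.23 and 0.91 on the lymphedema arrays and −1.04, −1.85 and 0.15 on the sham arrays. Lymphedema array 2 lay below normal array 1, so the groups overlapped. The log2 difference was 1.28 (standard error 0.539, 95% interval 0.0982 to 2.46, adjusted p = 0.211 from limma), and the interval also holds the values of C1qa and C1qc. The second clone of C1qb had no value on normal array 1 and was not tested. It had −0.23 and −0.06 on the other normal arrays, 1.12, 0.54 and 0.91 on the lymphedema arrays and 0.26, −0.21 and 0.94 on the sham arrays. In that clone the 3 lymphedema arrays were above both normal arrays, and sham array 3 was again the highest of the sham arrays.

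C1qb, C1qc and C1qa lie next to each other on mouse chromosome 4 in the RefSeq annotation of build GRCm38.p6. The 250 bases before the start site of C1qb (chr4:136886201-136886450, minus strand) and of C1qc (chr4:136892915-136893164, minus strand) are shown because the arrays compared these neighboring chains. Sequences are from RefSeq, whose table held a promoter for 5 of the 7 genes. A window of 250 bases before to 50 after the start was searched on both strands for GAGGAA (core of sites for PU.1, a factor of macrophages), GAAANNGAA (part of an interferon response element), TTCNNNGAA (STAT sites), TATAAA and CCAAT. Capitals mark a match, which in both stretches is GAGGAA or its reverse complement.
C1qb: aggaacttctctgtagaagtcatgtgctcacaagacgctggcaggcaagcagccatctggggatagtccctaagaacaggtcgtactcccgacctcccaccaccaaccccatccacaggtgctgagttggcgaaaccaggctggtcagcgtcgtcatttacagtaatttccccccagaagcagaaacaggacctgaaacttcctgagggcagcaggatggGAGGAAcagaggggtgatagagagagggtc
C1qc: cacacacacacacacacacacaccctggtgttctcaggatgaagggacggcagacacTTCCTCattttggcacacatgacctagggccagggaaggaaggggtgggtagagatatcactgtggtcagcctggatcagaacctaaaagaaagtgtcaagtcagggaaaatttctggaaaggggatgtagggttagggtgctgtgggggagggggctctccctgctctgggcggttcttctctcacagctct
The C1qb match began 30 bases before the start on the sense strand and the C1qc match 193 bases before it on the other strand. This core is common, present in 28.3% of the 32851 promoters of the table. The window of C1s1 held none of the 5 motifs. These letters are a description of the windows and no evidence of binding.

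The C1 protease gene C1s1 rose, and its neighbor C1ra gave no single direction. The first clone of C1s1 had −0.09, −0.86 and −0.11 on the normal arrays, 0.31, 0.91 and 1.46 on the lymphedema arrays and 0.60, 0.16 and 0.27 on the sham arrays. All lymphedema arrays and all sham arrays were above all normal arrays, and the sham arrays overlapped with lymphedema array 1. The log2 difference of lymphedema from normal for C1s1 was 1.25 (standard error 0.297, 95% interval 0.594 to 1.90, adjusted p = 0.0461 from limma). The call was close to the threshold and ended without centering of the arrays (1.18, adjusted p = 0.0653) and with quantile normalization (1.23, adjusted p = 0.0613). The blocked value, from lymphedema array 1, was 0.67. The second clone of C1s1 lacked normal array 1 and was not tested. It had 0.39 and 0.60 on the other normal arrays, 1.30, 1.64 and 1.95 on the lymphedema arrays and 1.35, 1.02 and 0.78 on the sham arrays. It read higher than the first clone by 0.79 on average over the 8 arrays with both, and its lymphedema and sham arrays were again all above the normal ones.

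C1ra, which encodes C1r, the protease that activates C1s, lies beside C1s1 on chromosome 6 and had 2 complete clones. Their log2 differences of lymphedema from normal were 0.67 and −0.64, with an adjusted p = 0.313 and 0.254 from limma on single features. The first clone of C1ra had 1.38, 0.70 and 0.46 on the normal and 1.00, 1.84 and 1.71 on the lymphedema arrays, which overlapped. The second clone had 0.38, 1.00 and 0.94 on the normal arrays and −0.03, 0.11 and 0.32 on the lymphedema arrays, which did not overlap. Their average, 0.02 (standard error 0.182), therefore combines 2 clones of opposite sign and describes neither.

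Serping1, the gene of the inhibitor of these proteases, rose in lymphedema and read at similar values in sham skin. It had 1.25, 1.00 and 1.67 on the normal arrays, 2.56, 2.25 and 2.71 on the lymphedema arrays and 2.29, 2.34 and 1.98 on the sham arrays. All 6 arrays of operated tails were above the 3 normal arrays, and lymphedema and sham overlapped. Serping1 was at 1.31 ± 0.34 (SD, n = 3) in normal, 2.51 ± 0.23 in lymphedematous and 2.20 ± 0.20 in sham skin. The log2 difference of lymphedema from normal was 1.20 (standard error 0.215, 95% interval 0.731 to 1.67, adjusted p = 0.0235 from limma). The blocked value of 1.26 from lymphedema array 1 was of the same size.

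Cd46 fell, with little scatter inside the normal and the lymphedema group. It had 0.64, 0.59 and 0.49 on the normal arrays, −0.37, −0.31 and −0.30 on the lymphedema arrays and −0.47, 0.37 and 0.26 on the sham arrays. The SD was 0.0768 in normal and 0.0396 in lymphedematous skin against 0.453 in sham skin, where array 1 lay below the lymphedema arrays and arrays 2 and 3 lay between the other groups. The log2 difference of lymphedema from normal for Cd46 was −0.89 (standard error 0.216, 95% interval −1.37 to −0.422, adjusted p = 0.0468 from limma). The standard error is shared over all 9 arrays and so includes the scatter of sham skin. Tested as a single feature the clone had an adjusted p = 0.0644, and as a gene it missed the threshold with features on at least 2 of 3 arrays per group (adjusted p = 0.0548) and with 1 clone per gene (adjusted p = 0.0683). The value itself stayed between −0.99 and −0.86 in all 18 alternatives. Several of these change only the test, the filter or the sham arrays and so leave this value the same by construction.

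The 250 bases before the start site of Cd46 (chr1:195092249-195092498, minus strand, GRCm38.p6, from RefSeq) are shown as those of the member that fell. Capitals mark ATTGG, the reverse complement of the CCAAT box.
Cd46: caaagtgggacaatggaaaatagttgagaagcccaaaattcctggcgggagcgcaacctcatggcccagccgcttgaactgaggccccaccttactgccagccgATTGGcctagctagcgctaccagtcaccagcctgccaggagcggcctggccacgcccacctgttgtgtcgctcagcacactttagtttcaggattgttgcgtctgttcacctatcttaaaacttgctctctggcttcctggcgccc
The CCAAT match began 146 bases before the start, and CCAAT was present in 37.4% of all promoters. A match to the reverse complement of GAAANNGAA, which 8.56% of promoters hold, began at base 4 after the start, outside the stretch shown. Next to Cd46 on chromosome 1 lies Cr1l, which had 2 complete clones. Averaged over them Cr1l had −0.06, −0.15 and 0.09 on the normal arrays, 0.33, 0.45 and 0.44 on the lymphedema arrays and 0.66, 0.53 and 0.26 on the sham arrays. Both operated groups were above all normal arrays, and the log2 difference of lymphedema from normal was 0.45 (standard error 0.169, adjusted p = 0.166 from limma), which did not pass.

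Counted by clone, 7 of the 9 clones had a value on every array, and 5 of these passed in lymphedema against normal skin, all as higher. Of the 30702 complete features, 2.3% passed as higher and 0.635% as lower. The 5 were both clones of C1qa and the tested clones of C1qc, C1s1 and Serping1.

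The comparison of sham with normal skin asks what the incision without cautery changed, and no complement gene passed in it. Limma passed 0 of the 6 complement genes and 0 of all 8644 genes (0% as higher and 0% as lower), with 685 genes at an unadjusted p under 0.05, and SAM passed 0 of the 6 and 21 of all genes. Serping1 had the smallest adjusted p of the 6, with a log2 difference of 0.90 (95% interval 0.428 to 1.37, adjusted p = 0.284 from limma). C1qa had 0.96 (0.212 to 1.72, adjusted p = 0.499), C1s1 0.69 (0.0404 to 1.34, adjusted p = 0.586), C1qc 0.56 (−0.174 to 1.29, adjusted p = 0.728) and Cd46 −0.52 (−0.991 to −0.0453, adjusted p = 0.566). C1qb had −0.27 (−1.45 to 0.916, adjusted p = 0.934), and its sign turned without normal array 1, without sham array 2 and when blocked on slide set. Without normal array 1 the second clone of C1qb was complete and entered the average. The sham arrays lay beyond all normal arrays for C1s1 and Serping1, which were higher, and for Cd46, which was lower. Over all genes 9.72% had all sham arrays higher and 3.09% had all lower. All normal arrays are in one slide set and all sham arrays in the other, so only lymphedema array 1 links them. Blocked on slide set, the differences were 0.98 for Serping1, 1.11 for C1qa and −0.18 for C1s1.

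**Figure D2:**
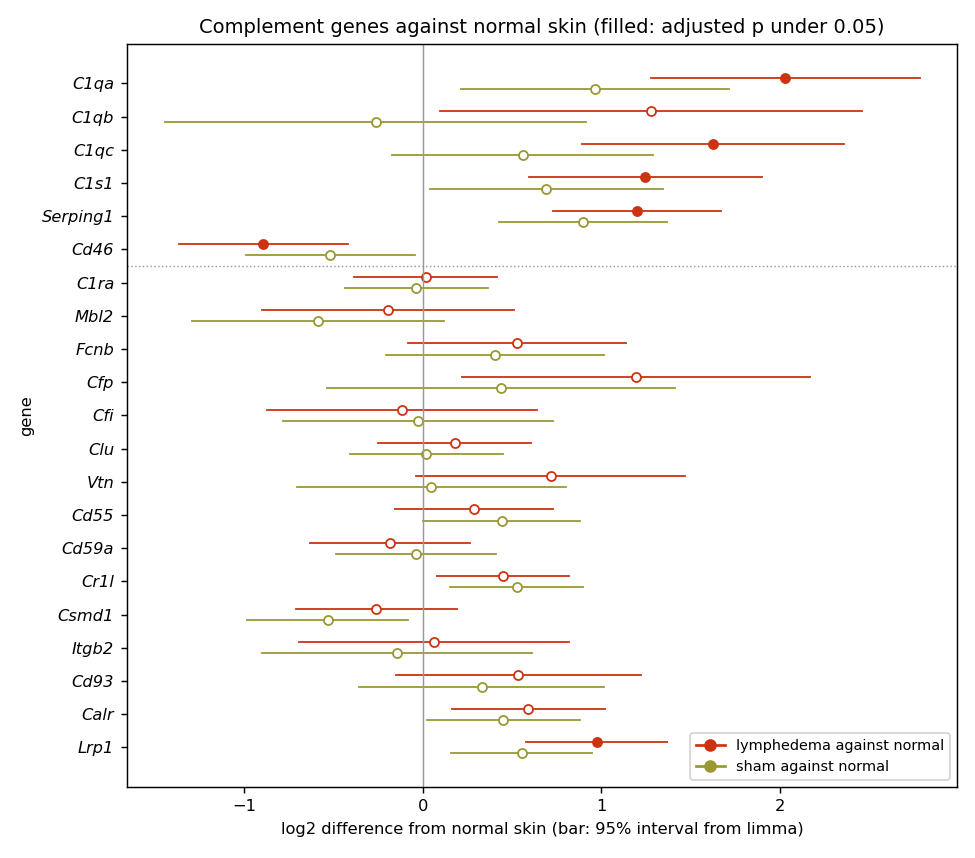
Log2 difference from normal skin (horizontal axis) with its 95% interval from limma for 6 genes of the classical pathway and, under the dotted line, 15 other complement genes. Red is lymphedema against normal, olive is sham against normal, and filled points passed at an adjusted p under 0.05. Filled points are C1qa, C1qc, C1s1, Serping1, Cd46 and Lrp1, each for lymphedema, and both comparisons use the same 3 normal arrays.

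Lymphedema against sham skin asks what lymphatic cautery added to the incision, and again 0 of the 6 genes passed. In this comparison 0.0116% of all genes passed in each direction, with 643 genes at an unadjusted p under 0.05, and SAM passed 0 of the 6 and 4 of all genes. C1qb had 1.55 by its first clone (95% interval 0.364 to 2.73, adjusted p = 0.544 from limma), but 0.53 by its second clone and 1.04 over both. C1qa had 1.07 (0.315 to 1.82) and C1qc 1.07 (0.334 to 1.80), both with an adjusted p = 0.505. C1s1 had 0.55 (−0.0989 to 1.21, adjusted p = 0.692), Serping1 0.30 (−0.168 to 0.774, adjusted p = 0.762) and Cd46 −0.38 (−0.849 to 0.0964, adjusted p = 0.706). C1qa was the only one of the 6 whose lymphedema arrays all lay above the sham arrays, with 2.17 as the lowest lymphedema and 2.13 as the highest sham value, as in 6.63% of all genes, while 3.69% had all lymphedema arrays below. In its first clone alone sham array 3, at 1.93, was level with lymphedema array 3, at 1.92. The calls depended on sham array 3. Without it C1qa passed at 1.45 (adjusted p = 0.0466 from limma) and C1qc at 1.49 (adjusted p = 0.0204), while the calls over all genes went from 2 to 98. Within the slide set that holds all sham arrays and lymphedema arrays 2 and 3, C1qa differed by 1.02 (standard error 0.407), C1qc by 1.18 (0.39), C1qb by 1.25 (0.609), C1s1 by 0.84 (0.287), Serping1 by 0.28 (0.252) and Cd46 by −0.35 (0.254), and none passed.

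The genes were then compared with each other, since the C1q chains, the protease and the regulators need not move by equal amounts. For each of 15 pairs the within-array difference was compared between normal and lymphedema arrays, which is free of the centering of the arrays. With 3 against 3 arrays the exact permutation test (two-sided) cannot go below p = 0.10, so no pair could pass, and 0 of the 15 had an unadjusted p under 0.05. The values did not overlap between the groups in 6 pairs (exact p = 0.1, adjusted p = 0.25 over the 15). Of all pairs of genes on the array 33% did not overlap, so 6 of 15 is near the share of any genes. Each of the 5 pairs with Cd46 was among the 6, with changes of 2.93 for C1qa, 2.52 for C1qc, 2.17 for C1qb, 2.14 for C1s1 and 2.10 for Serping1 relative to Cd46. These 5 pairs share Cd46, the only measured member with a negative difference, and are not independent of each other.

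Among the 5 genes with a positive difference, C1qa gained 0.83 on Serping1. C1qa less Serping1 ran from −1.11 to −0.75 on the normal and from −0.53 to 0.35 on the lymphedema arrays. It was the only such pair without overlap, while 33% of all pairs of genes on the array had none. C1qa gained 0.79 on C1s1 and 0.41 on C1qc (each exact p = 0.3), and its values overlapped in both pairs. C1s1 and Serping1, protease and inhibitor, had nearly equal mean changes. Their within-array difference was −1.66 ± 0.28 (SD, n = 3) in normal and −1.61 ± 0.55 in lymphedematous skin (change 0.04, exact p = 0.9). A p of this size does not show that the 2 genes changed equally. C1qa gained 0.75 on C1qb, and C1qb less C1qc, C1s1 and Serping1 changed by −0.35, 0.03 and 0.08, with overlap in all 4 pairs.

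**Figure D3:**
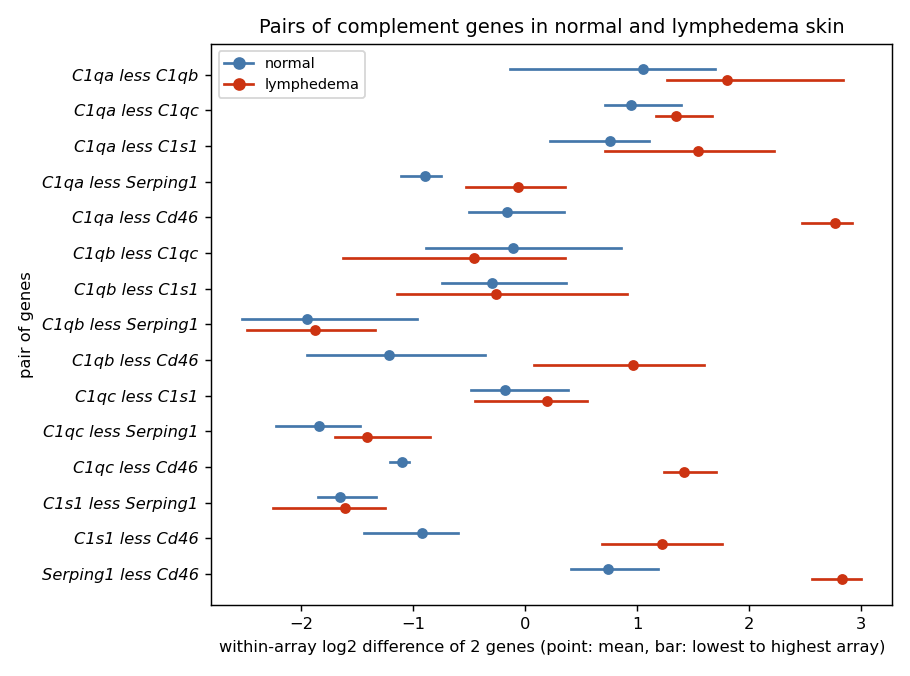
Within-array log2 difference of 2 complement genes (horizontal axis) for each of 15 pairs, in normal (blue) and lymphedema skin (red), with the mean as a point and a bar from the lowest to the highest of 3 arrays. The position of a pair also carries the level of both genes in the embryo reference, so the shift from blue to red is what can be read. The 5 pairs with Cd46 and the pair of C1qa and Serping1 show no overlap.

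Other genes of the complement system were read as well. Of 53 further genes listed by role, 19 had a clone of their own and 15 were complete and tested. In lymphedema against normal skin 1 of these passed as higher and 0 as lower, and their median difference was 0.29 with 11 of 15 positive. Over all genes 2.83% passed as higher and 0.602% as lower, and 62% had a positive difference. Of the 15, the gene that passed was Lrp1, an endocytic receptor that also binds C1q. Averaged over its 3 clones Lrp1 had 0.66, 0.34 and 0.18 on the normal arrays, 1.48, 1.41 and 1.22 on the lymphedema arrays and 1.09, 0.85 and 0.91 on the sham arrays. The 3 states did not overlap for Lrp1, with sham in between. Its log2 difference from normal was 0.97 (standard error 0.181, adjusted p = 0.027 from limma), its clones had 0.99, 1.04 and 0.90, and none of the clones passed singly. The call was lost without any 1 of the 3 normal or 3 lymphedema arrays, with 1 clone per gene and when blocked on slide set.

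By role, the recognition genes of the lectin pathway, Mbl2 and Fcnb, had −0.20 and 0.53. Cfp, the gene of properdin, which stabilizes the alternative pathway convertase, had 1.20 (standard error 0.445, adjusted p = 0.16 from limma), with all lymphedema arrays above all normal arrays. Among soluble regulators Cfi, a protease for which CD46 is a cofactor, had −0.12 and Vtn, vitronectin, had 0.72, and both lay far below the embryo reference at −3.81 and −4.36 in normal skin. Among membrane regulators Cr1l had the largest value at 0.45 and Csmd1 the smallest at −0.26. The receptor subunit gene Itgb2 had 0.06, and Cd93, listed as a C1q binding protein, had 0.54. Limma passed 0 of these 15 genes in sham against normal skin (median 0.05) and 0 in lymphedema against sham skin (median 0.16).

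C1q is a product of macrophages, and marker lists of cell types were read on the same arrays. Of 13 measured macrophage and monocyte genes 5 passed as higher in lymphedema and none as lower, against 2.83% and 0.602% of all genes. The median difference was 0.78. For 9 of 13 all lymphedema arrays lay above all normal arrays, as for 23.6% of all genes. The same shares apply to the other lists. The 5 that passed include Fcer1g at 2.48, Lyz2 at 1.95 and Aif1 at 1.45, while Cd14 had 1.28 and did not pass. Csf1r had −0.06, Msr1 0.24, Fcgr3 0.33, Cd68 0.49 and Adgre1 0.78, and none of these passed either. In all, 12 of the 13 differences were positive, so the rise was uneven within the list. The mean over the list ran from −0.41 to −0.36 on the normal, 0.52 to 0.57 on the lymphedema and −0.37 to 0.49 on the sham arrays. Of 8 neutrophil genes 4 passed as higher (median 0.97), among them S100a9 at 4.61, Lcn2 at 2.83 and S100a8 at 2.83. Mmp9 had 1.10, Ltf 0.77, Ngp 0.68 and Cxcr2 −0.04, and none of these passed, so this list was uneven too. The neutrophil list mean ran from −0.87 to −0.76, 0.69 to 1.00 and −0.57 to 0.58 on the normal, lymphedema and sham arrays. Of 4 endothelial genes 2 passed, Kdr at 0.99 and Eng at 0.92 (median 0.95). None passed among 7 fibroblast genes (median 0.66), 7 keratinocyte genes (0.03), 5 mast cell genes (0.58), 2 lymphocyte genes (−0.07), 5 muscle genes (0.40) and 8 hepatocyte genes (0.05). The hepatocyte list, which marks the main source of plasma complement, had array medians of −6.10 to −5.47 relative to the embryo. The part of cell composition in the complement values was not tested.

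Sham array 3 was the highest sham array for the C1q chains and for 7 of these 9 lists. Relative to the normal mean, C1qa was at 1.02, 0.15 and 1.73 on sham arrays 1 to 3, C1qc at 0.51, −0.24 and 1.41 and C1qb at −0.39, −1.20 and 0.79. The macrophage list was at −0.33, 0.01 and 0.60 and the neutrophil list at 0.48, 0.95 and 2.32. Sham array 3 was highest in each of these, and the lowest array was array 2 for the chains and array 1 for both lists. The order was not particular to leukocyte genes. The medians of the fibroblast list (−2.01, −1.99 and −0.69), the endothelial list (−0.38, −0.58 and 0.06) and the mast cell, muscle and hepatocyte lists were also highest on sham array 3, and those of the keratinocyte list (2.31, 2.35 and 1.53) and the lymphocyte list were lowest there. Serping1 had 0.98, 1.04 and 0.68 and C1s1 had 0.95, 0.51 and 0.62, with array 3 not the highest. With 3 sham arrays no correlation was computed.

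**Figure D4:**
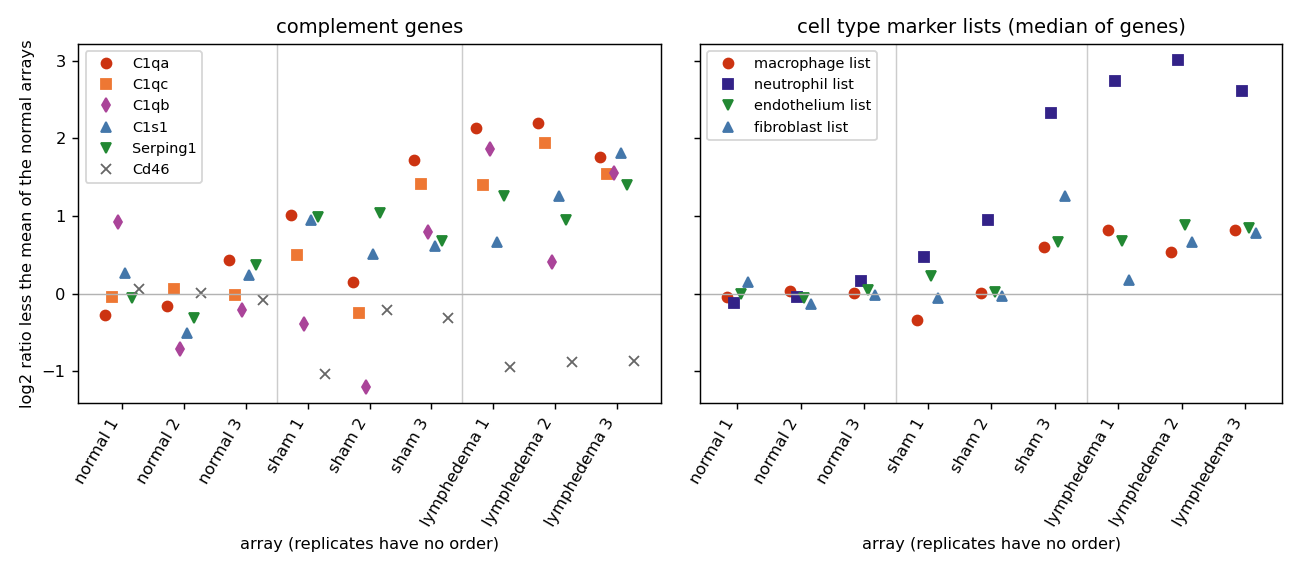
Log2 ratio less the mean of the 3 normal arrays (vertical axis) on each of the 9 arrays, for 6 complement genes (left) and for the median of 4 marker lists (right). Each symbol is 1 gene or list, and replicates of a state have no order. Sham array 3 lies near the lymphedema arrays for C1qa, C1qc and the neutrophil list, while Serping1 is raised on all 3 sham arrays and Cd46 is below 0 on all sham and lymphedema arrays.

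The genes nearest to each complement gene across the 9 arrays were found by the root mean square difference after removal of each gene's own mean. For the mean of the C1q chains they were Ctsz (cathepsin Z, a lysosomal protease) at 0.20, Svep1 at 0.24, Cyba (a subunit of the phagocyte NADPH oxidase) at 0.26, Ms4a6d at 0.26 and St6galnac4 at 0.27, against a median of 0.83 over all genes. Their log2 differences of lymphedema from normal were 1.11 to 1.64. Nearest to C1s1 were H2-K1 (a heavy chain of MHC class I) at 0.20, Pecam1 (an adhesion protein of endothelium) at 0.24, Pip4p2 at 0.27, Txndc5 at 0.30 and Wnt7b at 0.30, against a median of 0.64. Nearest to Serping1 were Ly6c1 at 0.17, Hilpda at 0.21, Actr8 at 0.21, Cmbl at 0.22 and Ptprz1 at 0.23, against a median of 0.58. Nearest to Cd46 were Pcp2 at 0.12, Tbp (the TATA-binding protein) at 0.13, 1700027F06Rik, Prl5a1 and Micall1 at 0.16 each, against a median of 0.53. Genes this near were selected from 8644, share the arrays and their centering, and are given as a description with no test.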

How the data were processed

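Labels gave 3 states with 3 arrays each. Per the labels and methods the authors extracted features with GenePix, then used Expressionist to subtract background, normalize dyes, drop features of weak reference signal and impute. The deposited values are log2 ratios read at base 2, with the base and the authors' centering unstated, and 1.34% to 12.6% of an array is missing. Intensities were not used here. The sign was turned, arrays were centered on their medians, and clones of a gene with values on all 9 arrays were averaged. The fit was limma 3.58.1 (lmFit, eBayes) in R 4.3.3 on all 9 arrays with group as the only term, adjusted by Benjamini-Hochberg at 0.05 over 8644 genes or 30702 features. The fit was also run on simulated data with independent noise and no slide set pattern, so that run says nothing about such a pattern. Pairs used exact permutation. SAM was written anew with all 20 permutations. Figures used matplotlib 3.10.9 in Python 3.11.15.

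The genes, lists and tests were chosen with earlier results of these data known. Named were every member, other complement genes past the threshold or the largest and smallest of their role, and the 5 nearest genes per target. Up to 4 markers per list were named by size of change, and for macrophages and neutrophils also others that did not pass. Alternatives were other scaling, filter, arrays, clones and test, both blocks and each array left out. The annotation named 20678 features by 1 gene, 953 by several and 20993 by none. Cfb, C4a, C4b and Masp2 were on shared clones only and got no value.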

Additional observations from a re-analysis of the deposited data

How the results depend on the processing

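In lymphedema against normal skin all 6 complement genes kept their sign in 18 alternatives. Several of these change only the test or the sham arrays, so the sign could not turn in them. The call held in 13 of them for C1qa, 12 for Serping1, 11 for C1qc, 8 for Cd46 and 7 for C1s1, and SAM, which passed 1838 of 8644 genes against 297 with limma, also passed C1qb. The fit blocked on slide set leaves 1 lymphedema array, so a call lost in it is no result about these genes. The 5 calls became 0 to 5 with 1 array left out, where fewer samples are fitted. The 5 called clones became 1 to 6 with 1 array left out. Without lymphedema array 2 only 1 clone passed. The sample titles number the replicates and state no pairing between states. Deviations of same-numbered arrays correlated at −0.24 to 0.28, which with 3 arrays per state can neither show nor exclude a pairing. With the replicate number as a block 3 genes passed (C1qa, C1qc and Serping1) and C1s1 (adjusted p = 0.06 from limma) and Cd46 (adjusted p = 0.0711) did not, and over all genes 145 passed against 297. The replicate block changed no call in the other comparisons of these genes. The 1 call among other complement genes became 2 with arrays of both groups only, 0 with 1 clone per gene, 5 with SAM and 0 to 2 with 1 array left out. In lymphedema against sham skin 0 to 2 genes passed with 1 array left out. In sham against normal skin C1qb turned to 0.62 when blocked on slide set and ran from −0.79 to 0.33 with 1 array left out (0.33 without normal array 1 and 0.20 without sham array 2), and C1s1 to −0.18 when blocked on slide set. Without normal array 1 the second clone of C1qb was complete and was averaged in, whereas the main value rests on the first clone alone. The cause of these turns was not tested. Between 6 and 8 of the 15 pairs did not overlap in the alternatives in which pairs were counted. They were not counted for SAM, both blocks and the run with arrays of both groups only. The share over all pairs of genes, 33%, was computed for the main setting only, and a lack of overlap is easier to reach with 1 array left out. Whether clones lay near background could not be read from ratios.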
